A study of Rattus norvegicus with 10 samples.

Results

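Collagens are the structural proteins of the extracellular matrix. This account covers the genes for collagen chains in the supraoptic nucleus (SON) of the rat, the part of the hypothalamus whose large neurones release vasopressin and oxytocin from their endings in the posterior pituitary. Members were the genes whose symbol in the authors' deposited table has the form of a numbered collagen chain, Col with a type number and a chain number. There were 42 such genes of 32402 listed, and 39 passed the filter on low counts. Polyadenylated RNA of bilateral SON punches from Wistar Han rats was sequenced in 5 euhydrated samples (free access to drinking water, the control group) and 5 dehydrated samples (72 h without drinking water). Water access was allotted by cage, no sex or age is given in the sources used here, and the labels leave unsaid whether 1 animal gave 1 sample, so the p-values reflect spread among libraries that may in part be technical. Libraries are named by group and the number in the column of the count table.

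Each collagen molecule is a trimer of chains wound into a triple helix, and chain combinations are set by type. Fibrillar types build the fibres of connective tissue, which in brain are found mainly in the meninges and around larger vessels. Basement membrane types, above all type IV, form the sheet under endothelial cells and around pericytes and the end-feet of astrocytes. Transmembrane types span the cell membrane and can be shed from it, and fibril-associated types sit on the surface of fibres. In the SON, capillaries are dense, and the magnocellular neurones and their surrounding glia and vessels are known to be remodelled when an animal is dehydrated.

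Total counts in genes ranged from 24268398 to 28491926 between libraries, of which collagen chains took 0.118% to 0.150%. Transcripts of the vasopressin and oxytocin genes, Avp and Oxt, were abundant in the punches, though these genes are not exclusive to the SON. Their summed level was 7286 to 10530 CPM (counts-per-million, read counts as a share of the library size, scaled by TMM factors) in euhydrated and 10160 to 13810 CPM in dehydrated libraries. Punches also hold blood vessels, meninges and blood, and in such bulk samples fewer cells of a type cannot be told apart from less RNA per cell. Chains are not compared with one another by level, because counts were not scaled to transcript length. A gene was called higher or lower when its p-value from edgeR, corrected by Benjamini-Hochberg over all 15311 genes tested, was under 0.05.

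Of the 39 collagen chains tested, 9 rose, 2 fell and 28 did not pass the threshold. Among all genes tested, 7.79% rose and 4.9% fell, against 23.1% and 5.13% of the collagen chains. The groups did not overlap in CPM for 9 chains (23.1%), against 10.9% of all genes. The median log2 fold change, dehydrated over euhydrated, was 0.02 for the collagen chains and -0.0058 for all genes. Above 0 were 20 of the 39 chains and 48.2% of all genes, a share to be read beside the counts of signs below. By class, 5 of 7 basement membrane chains rose, 1 of 10 fibrillar chains rose, and among 3 transmembrane chains 1 fell. The differences between classes were not tested. By the adjusted p of the authors' deposited table, 9 chains were higher and 2 lower.

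**Figure D1:**
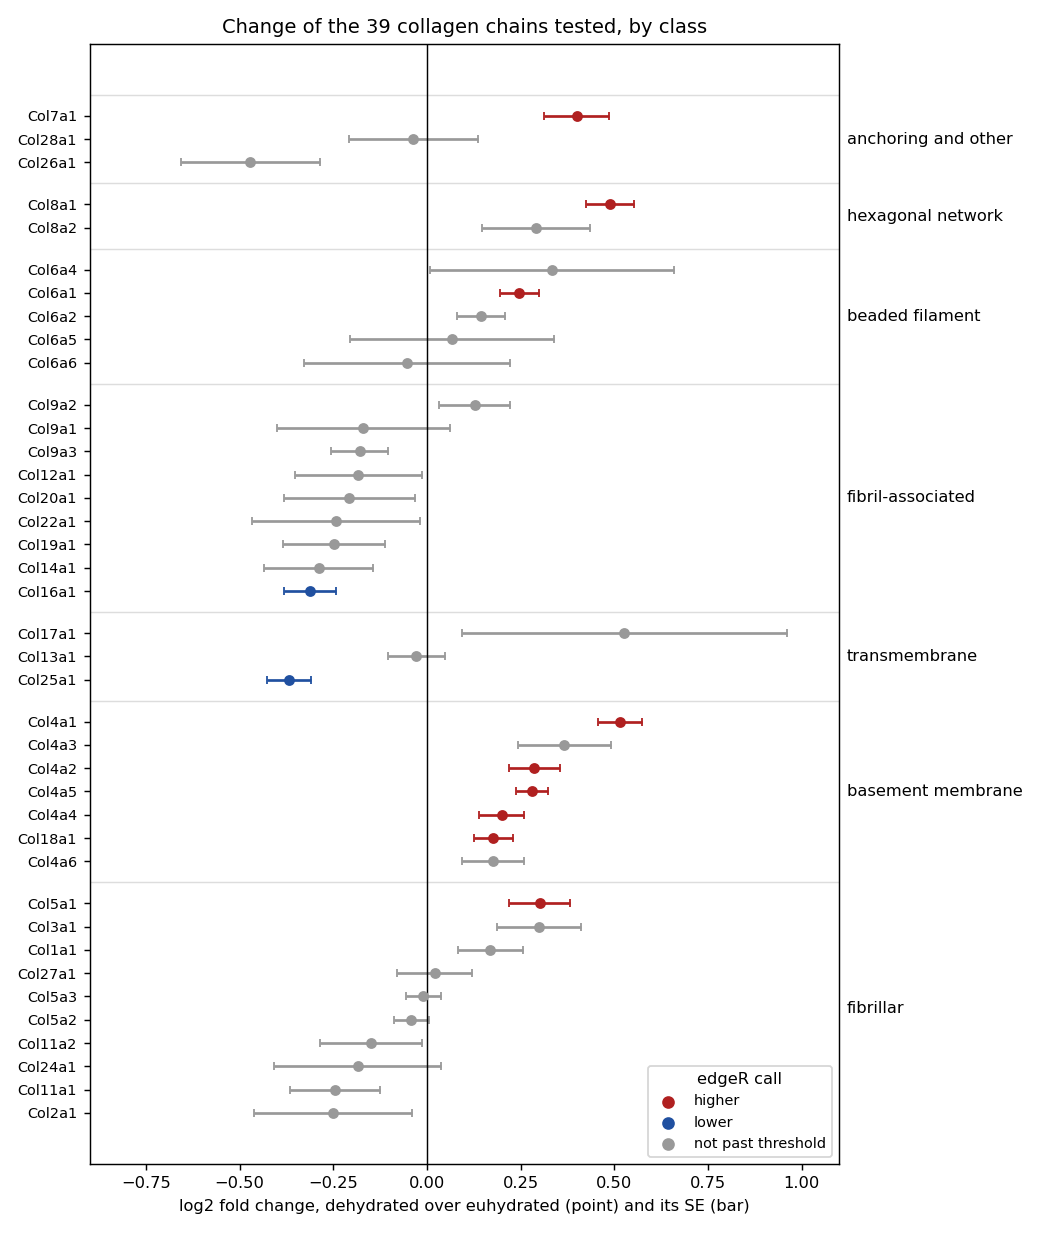
Log2 fold change (horizontal axis, dehydrated over euhydrated) and its standard error for each of the 39 collagen chains tested, grouped by class; red marks chains called higher, blue chains called lower, grey chains not past the threshold. Basement membrane chains lie between 0.18 and 0.52, while fibrillar chains lie on both sides of 0.

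In the basement membrane class, all 7 chains tested had a log2 fold change above 0. Of the 6 type IV chains, which form the network of every basement membrane, 4 rose and 0 fell, against 7.79% and 4.9% of all genes. The log2 fold changes of the 6 ran from 0.18 to 0.52 with a median of 0.28. Col4a1 and Col4a2 encode the chains of the ubiquitous type IV trimer, the main collagen of capillary walls. Col4a1 (ENSRNOG00000016281) stood at 85.3, 93.7, 75.2, 88.3 and 84.3 CPM in euhydrated libraries 1 to 5 and at 135, 115, 127, 117 and 115 CPM in dehydrated libraries 1 to 5. Every dehydrated library was above every euhydrated one. The group means were 85.4 ± 6.77 and 122 ± 9.06 CPM (SD, n = 5), a rise of 1.43-fold and a log2 fold change of 0.52 ± 0.06 (SE; adjusted p = 7.94e-05).

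Col4a2 (ENSRNOG00000023972) stood at 82.2, 91.6, 79.6, 81.9 and 73.8 CPM in euhydrated and 117, 96.4, 98.6, 92.1 and 94.6 CPM in dehydrated libraries. The groups did not overlap, but the highest euhydrated and lowest dehydrated library were close, and dehydrated 1 stood above the other dehydrated libraries. The rise was 1.22-fold, from 81.8 ± 6.41 to 99.8 ± 10.0 CPM (SD, n = 5), with an adjusted p of 0.0175.

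Col4a1 and Col4a2 lie head to head in the rat genome. By the RefSeq start sites on build GRCr8, they start 77 bases apart on opposite strands of chromosome 16, so that a single stretch of DNA lies upstream of both. Col4a3 and Col4a4 start 413 bases apart on chromosome 9 and Col4a5 and Col4a6 1415 bases apart on chromosome X, also on opposite strands. The windows printed here, from 250 bases before to 50 bases after a start site, show one promoter of each type IV pair and, for contrast, that of Col16a1, a chain that fell. Capitals mark matches to GGGCGG (the GC box) and CCAAT on either strand. The Col4a1 window is chr16:84885347-84885646 (plus strand) and also spans the start of Col4a2, the Col4a4 window is chr9:91323528-91323827 (minus strand), the Col4a5 window is chrX:109907109-109907408 (plus strand) and the Col16a1 window is chr5:147672846-147673145 (plus strand).
Col4a1: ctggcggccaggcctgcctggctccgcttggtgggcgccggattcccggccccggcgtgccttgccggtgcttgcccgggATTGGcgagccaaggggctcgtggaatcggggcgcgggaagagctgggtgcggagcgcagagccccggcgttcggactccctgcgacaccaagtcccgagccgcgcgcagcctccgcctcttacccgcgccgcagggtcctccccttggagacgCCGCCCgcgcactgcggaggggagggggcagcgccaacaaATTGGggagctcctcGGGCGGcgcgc
Col4a4: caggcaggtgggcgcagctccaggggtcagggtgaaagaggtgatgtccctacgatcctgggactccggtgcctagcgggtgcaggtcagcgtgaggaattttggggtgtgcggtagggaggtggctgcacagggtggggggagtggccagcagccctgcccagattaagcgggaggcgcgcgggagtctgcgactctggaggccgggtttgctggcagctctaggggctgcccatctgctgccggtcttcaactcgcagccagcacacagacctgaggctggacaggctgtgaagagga
Col4a5: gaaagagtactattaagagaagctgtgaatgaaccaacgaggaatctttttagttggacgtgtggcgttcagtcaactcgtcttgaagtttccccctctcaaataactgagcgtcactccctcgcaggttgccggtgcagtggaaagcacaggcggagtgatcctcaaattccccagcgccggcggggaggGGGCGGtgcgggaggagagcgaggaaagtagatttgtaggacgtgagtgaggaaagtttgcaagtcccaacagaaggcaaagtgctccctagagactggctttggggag
Col16a1: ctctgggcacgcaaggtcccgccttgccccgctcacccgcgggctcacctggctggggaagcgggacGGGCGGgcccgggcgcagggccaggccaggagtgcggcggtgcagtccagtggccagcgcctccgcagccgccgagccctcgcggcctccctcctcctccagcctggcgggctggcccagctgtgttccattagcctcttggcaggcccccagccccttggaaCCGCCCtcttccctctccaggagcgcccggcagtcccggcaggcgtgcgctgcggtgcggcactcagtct

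The Col4a1 and Col16a1 windows were both 75.0% G and C, against 65.3% for Col4a4, 53.3% for Col4a5 and a median of 51.7% over all promoter windows. The Col4a1 window held 2 GC boxes and 2 CCAAT matches, that of Col16a1 2 GC boxes and no CCAAT, that of Col4a5 1 GC box and that of Col4a4 neither. Of 33 collagen chains with a window in the RefSeq table, 19 (57.6%) held a GC box, 10 (30.3%) CCAAT and 3 (9.09%) TATAAA, against 33.1%, 37.5% and 14.2% of all 33469 windows of the same length. These matches describe letters only and were not tested against the changes.

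The 2 chains of a shared trimer did not move by the same factor. The ratio of Col4a1 to Col4a2 read counts, which library scaling cannot change, was 1.04, 1.02, 0.944, 1.08 and 1.14 in euhydrated libraries and 1.16, 1.19, 1.29, 1.27 and 1.22 in dehydrated libraries. All 5 dehydrated ratios lay above all 5 euhydrated ratios. The mean ratio was 1.05 ± 0.0731 against 1.23 ± 0.0566 (SD, n = 5; exact two-sided permutation p = 0.00794, the smallest that this design allows; adjusted p = 0.0159 over 2 ratios). For Col6a1 to Col6a2, chains of type VI collagen, that ratio was 0.713 ± 0.0317 in euhydrated and 0.768 ± 0.0386 in dehydrated libraries, with overlap between the groups (exact two-sided permutation p = 0.0397, also 0.0397 after adjustment). The Col6a1 to Col6a2 difference did not pass in 7 of the 10 computations that each left out 1 library (adjusted p up to 0.0714). The ratio of Col1a1 to Col1a2 could not be formed, because the identifier that the authors' second name column pairs with Col1a2 had 0 counts in all 10 libraries.

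**Figure D2:**
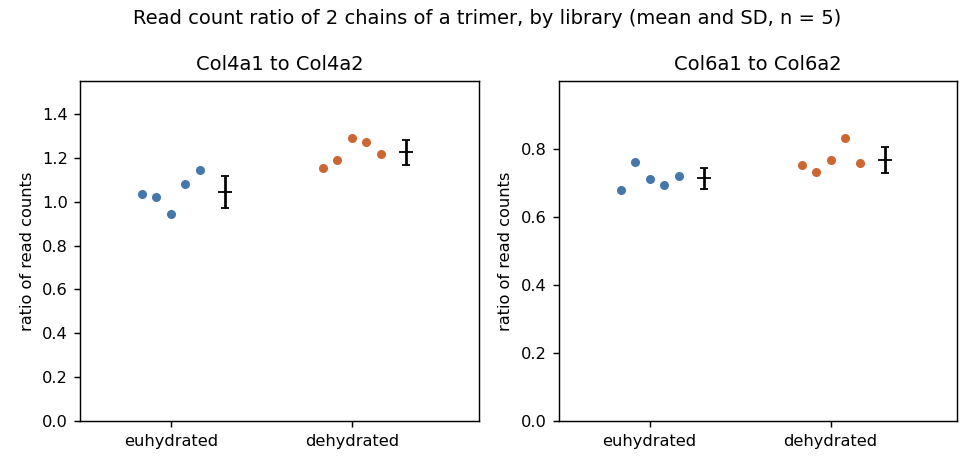
Ratio of read counts of Col4a1 to Col4a2 (left) and Col6a1 to Col6a2 (right) on the vertical axes, with 1 point per library and the mean and SD of each group of 5. The Col4a1 to Col4a2 ratio is 0.944 to 1.14 in euhydrated and 1.16 to 1.29 in dehydrated libraries, with no overlap.

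The other type IV chains make up the trimers of specialised basement membranes, such as that of the kidney glomerulus, and of smooth muscle. Col4a5 (ENSRNOG00000018951) had narrow spreads, at 41.3, 42.0, 44.4, 39.2 and 42.9 CPM in euhydrated and 51.3, 50.8, 53.6, 49.1 and 50.04 CPM in dehydrated libraries. The groups were well apart, and the 1.21-fold rise had an adjusted p of 0.000362. Col4a4 stood at 23.4, 23.8, 22.0, 24 and 20.7 CPM in euhydrated and 27.6, 23.3, 28.2, 26.3 and 25.3 CPM in dehydrated libraries. Dehydrated 2 lay within the euhydrated range, and the rise was 1.15-fold (adjusted p = 0.0409). Col4a3, the partner of Col4a4, had a log2 fold change of 0.37 ± 0.12 (SE) from a low level of 4.0 CPM and did not pass (adjusted p = 0.0657). Of 21 alternative fits it passed only in the 1 without euhydrated 2 (adjusted p = 0.0175), and its adjusted p ran up to 0.271. Col4a6, which pairs with Col4a5, had a log2 fold change of 0.18 ± 0.08 (adjusted p = 0.192).

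Beside type IV, the class held the multiplexins Col18a1 and Col15a1, basement membrane proteoglycans whose ends can be cleaved off. The Col18a1 product is the source of endostatin. Its gene stood at 62.0, 62.8, 71.1, 60.9 and 60.5 CPM in euhydrated and 73.0, 70.4, 74.3, 76.9 and 64.5 CPM in dehydrated libraries, with overlap because euhydrated 3 was high and dehydrated 5 low. The rise of 1.13-fold had an adjusted p of 0.0378. Col15a1 had 0 to 6 counts per library and was not tested. Another identifier that the authors' second name column pairs with Col15a1, which the symbol rule did not take in, had 0 counts in every library.

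Summed over the class, basement membrane chains stood at 294 to 329 CPM in euhydrated and 364 to 419 CPM in dehydrated libraries, with no overlap (308 ± 12.7 against 386 ± 22.2 CPM; SD, n = 5). Col4a1 and Col4a2 made up 167 and 222 CPM of these means. The rises of Col4a1 and Col4a5 held in all 21 alternatives at the same threshold, whereas Col4a2 was not past it in 3, Col4a4 in 12 and Col18a1 in 14. Col4a4 kept its call in the fits without euhydrated 2, euhydrated 4 or dehydrated 2 and lost it without any 1 of the other 7 libraries, and Col18a1 kept it without euhydrated 3 or dehydrated 5 and lost it without any 1 of the other 8 (adjusted p up to 0.225 and 0.297 over all alternatives).

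Cells of the vessel wall are a main source of type IV collagen, so their markers were measured in the same libraries. Of 11 genes listed as markers of mural cells (pericytes and vascular smooth muscle), 10 had a log2 fold change above 0. Only 1 of the 11 rose, Cspg4, which oligodendrocyte precursors also express. The summed level of the 11 genes was 770.4 to 1005 CPM in euhydrated and 794.4 to 1129 CPM in dehydrated libraries, and their mean level differed by 0.15 log2 CPM. Of 9 endothelial markers 6 were above 0 and 1, Kdr, rose, with sums of 438.1 to 461.1 and 430.5 to 486.5 CPM and a difference of 0.05. No marker of either list was at 0. With the mural marker level as a covariate, added after seeing the data, Col4a1 had a log2 fold change of 0.47 (adjusted p = 0.00162) and Col4a5 0.26 (0.00538), while Col4a2 went to 0.18 (0.109). In that fit 4 collagen chains were higher and 5 lower, the latter being Col25a1, Col16a1, Col11a1, Col11a2 and Col9a3. With the endothelial marker level, Col4a1 had 0.45 (adjusted p = 5.32e-05) and Col4a2 0.23 (0.061).

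Library by library, no correlation of Col4a1 over all 10 libraries is given, since the groups did not overlap. Taken as deviations from the group means, Col4a1 went with Col4a2 at Pearson r = 0.74 and Spearman rho = 0.71 (n = 10; permutation within groups, p = 0.0181 and 0.035, adjusted p = 0.0576 and 0.0995 over 5 relations), and r was 0.28 without euhydrated 2 and dehydrated 1, so that relation rests on those libraries. With the endothelial marker level Col4a1 gave r = 0.71 and rho = 0.73 (permutation p = 0.023 and 0.0398, adjusted p = 0.0576 and 0.0995), and r = 0.69 without the 2 farthest libraries. With the mural marker level r was 0.28 and rho 0.18 (permutation p = 0.453 and 0.661, adjusted p = 0.755 and 0.903), and r was -0.28 without the 2 farthest libraries. None of the 5 relations passed after adjustment when taken as deviations from the group means.

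**Figure D3:**
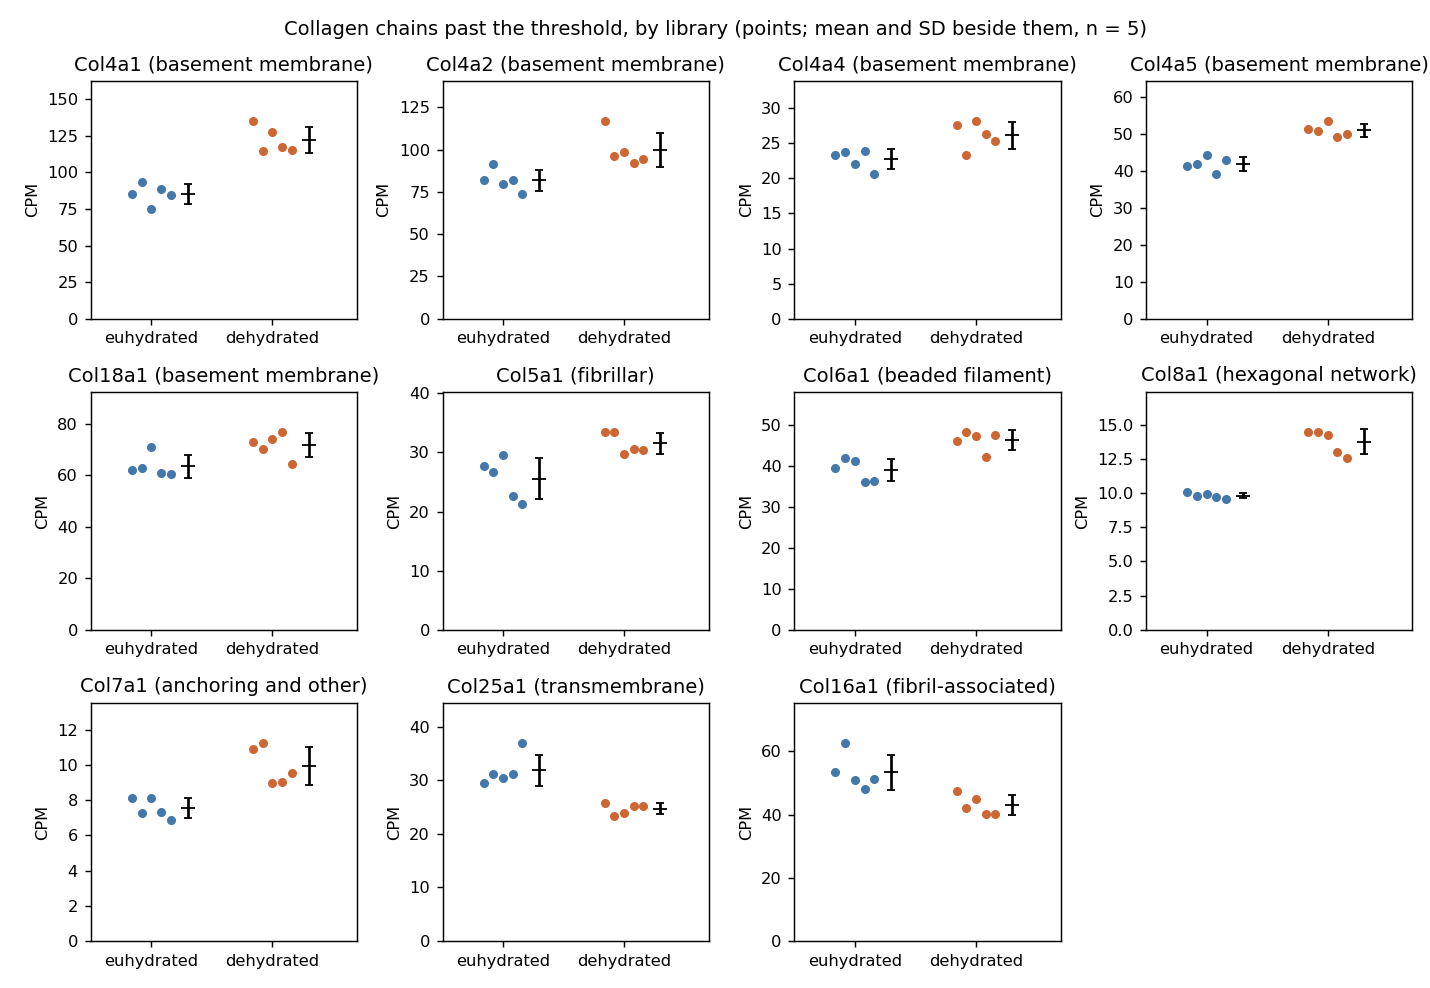
CPM (vertical axes, each from 0) of the 11 collagen chains past the threshold, with 1 point per library, the mean and SD of each group of 5 beside the points, and the class in brackets. Col4a1, Col4a5 and Col8a1 stand clear of the euhydrated group in every dehydrated library, Col25a1 and Col16a1 are lower in every dehydrated library, and Col4a4 and Col18a1 overlap.

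Fibrillar chains moved in both directions and mostly did not pass. Of 10 tested, 1 rose and 0 fell, against 7.79% and 4.9% of all genes. The log2 fold changes ran from -0.25 to 0.30 with a median of -0.03. The chain that rose was Col5a1, for a minor fibrillar chain that is built into type I fibres and limits their diameter. It stood at 27.7, 26.7, 29.6, 22.6 and 21.2 CPM in euhydrated and 33.5, 33.4, 29.8, 30.6 and 30.4 CPM in dehydrated libraries, groups that met at 29.6 and 29.8 CPM without overlap. The rise was 1.23-fold (adjusted p = 0.0262) and did not pass without euhydrated 4, dehydrated 1 or dehydrated 2, or with the erythrocyte or mural marker level as a covariate (adjusted p of 0.0618 to 0.246). Its partner chains Col5a2 and Col5a3 had log2 fold changes of -0.04 and -0.01.

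The chains of the major fibres, Col1a1 and Col3a1, were higher on average without passing. Col3a1, for type III collagen of distensible tissues such as vessel walls, stood at 140, 129, 139, 142 and 124 CPM in euhydrated and 203, 152, 188, 153 and 133 CPM in dehydrated libraries. Its spread in the dehydrated group was wide (166 ± 28.8 against 135 ± 7.89 CPM; SD, n = 5), and the log2 fold change of 0.30 ± 0.11 (SE) had an adjusted p of 0.122. Without dehydrated 5, the lowest of that group, it was 0.37 with an adjusted p of 0.0327, the only 1 of 21 alternatives that passed. With the mural marker level as a covariate the adjusted p of Col3a1 was 0.511. Col1a1, for type I collagen, had a log2 fold change of 0.17 ± 0.09 (adjusted p = 0.245), and 4 of its 5 dehydrated libraries (87.8 to 93.6 CPM) lay above all euhydrated ones, with dehydrated 5 at 69.7 CPM. Without dehydrated 5 its log2 fold change was 0.24 with an adjusted p of 0.0257, again the only 1 of 21 alternatives that passed (adjusted p up to 0.637). Col11a2, of the cartilage-type minor fibrils, had -0.15 ± 0.14 (adjusted p = 0.547), and Col2a1, the major cartilage chain, -0.25 ± 0.21 (0.504).

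Fibrillar collagens of the brain are made largely by fibroblasts of the meninges and vessels, and the SON lies at the ventral surface. Of 11 markers of these cells tested, 7 had a log2 fold change above 0 and 0 passed by edgeR (1 at an unadjusted p under 0.05; 1 by DESeq2, 0 by limma-voom). Their summed level was 1106 to 1355 CPM in euhydrated and 1114 to 1297 CPM in dehydrated libraries, and 1 listed marker, Ogn, was at or near 0 in every library. With the fibroblast marker level as a covariate 8 collagen chains were higher and 2 lower. Col1a1 did not follow their mean level across the 10 libraries (Pearson r = 0.17, Spearman rho = 0.39, permutation p = 0.634 and 0.263, adjusted p = 0.634 and 0.263; r = 0.41 without euhydrated 3 and dehydrated 2). Nor did its relation to Col3a1 pass (r = 0.50, rho = 0.59, permutation p = 0.148 and 0.0795, adjusted p = 0.185 and 0.156; r = 0.41 without dehydrated 1 and 3). Summed over the class, fibrillar chains stood at 551 to 621 CPM in euhydrated and 535 to 725 CPM in dehydrated libraries, so the dehydrated range enclosed the euhydrated one. The highest value was that of dehydrated 1.

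**Figure D4:**
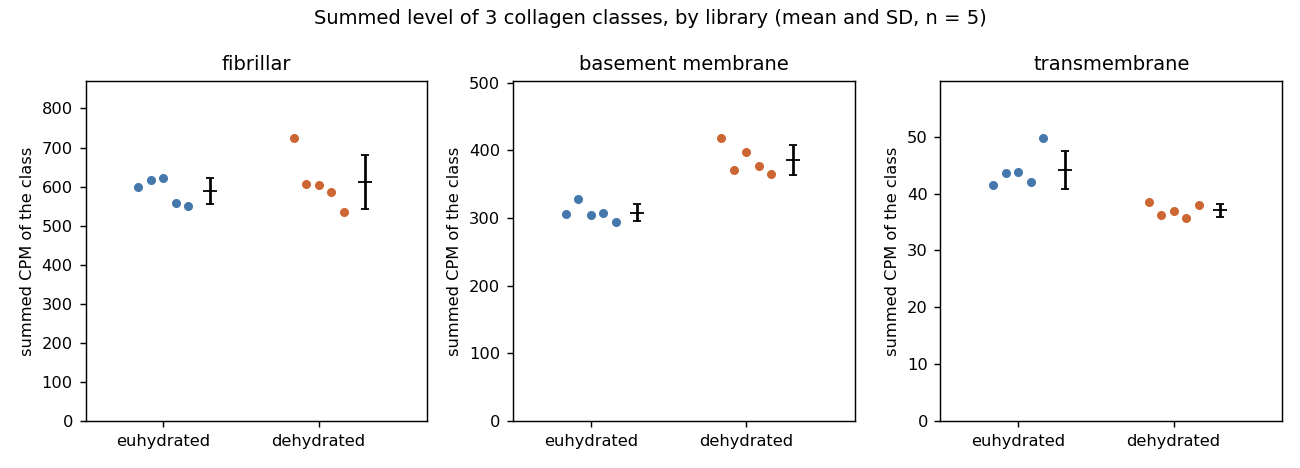
Summed CPM (vertical axes, each from 0) of the fibrillar, basement membrane and transmembrane collagen classes, with 1 point per library and the mean and SD of each group of 5. The basement membrane sum is 294 to 329 CPM in euhydrated and 364 to 419 CPM in dehydrated libraries, the transmembrane sum 41.5 to 49.9 and 35.7 to 38.6 CPM, and the fibrillar sums overlap. The transmembrane sum is mostly Col25a1, at 31.9 and 24.7 CPM of group means of 44.15 and 37.09 CPM, and no other chain of that class was called.

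Of the 2 chains that fell, 1 was in the transmembrane class. Col25a1 (ENSRNOG00000050706) encodes a membrane collagen of neurones, first isolated from the amyloid plaques of Alzheimer's disease, whose shed form binds amyloid peptide. It stood at 29.6, 31.2, 30.4, 31.2 and 37.0 CPM in euhydrated and 25.8, 23.4, 24, 25.2 and 25.2 CPM in dehydrated libraries, and every dehydrated library was below every euhydrated one. The mean was 1.29-fold lower, 31.9 ± 2.94 against 24.7 ± 0.988 CPM (SD, n = 5), a log2 fold change of -0.37 ± 0.06 (SE; adjusted p = 0.000701). Euhydrated 5 was well above the rest of its group, and without it the log2 fold change was -0.31 and still past the threshold. The fall held in all 21 alternatives, with adjusted p of 1.77e-06 to 0.0333.

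The other transmembrane chains gave no such change. Col13a1, a membrane collagen of the neuromuscular junction and of cell adhesion sites, stood at 10.0 to 11.9 CPM in euhydrated and 9.95 to 12.4 CPM in dehydrated libraries (log2 fold change -0.03 ± 0.08; adjusted p = 0.865). Col17a1, the hemidesmosome collagen of skin, was near 1 CPM with a wide spread, 0.325 to 1.46 and 0.506 to 2.15 CPM (log2 fold change 0.53 ± 0.43; adjusted p = 0.488). Col23a1 had 0 counts in all 10 libraries, which allows a level of up to 0.105 to 0.126 CPM per library (3 counts; counting error only). Of 6 markers of neurones in general 1 was higher and 1 lower, with a mean difference of -0.02 log2 CPM.

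Of the 9 fibril-associated chains, 1 fell and 0 rose, against 4.9% and 7.79% of all genes. A log2 fold change below 0 was seen in 8 of the 9, and the median was -0.21. The chain that fell was Col16a1, for a collagen that links fibres and microfibrils to cells. It stood at 53.5, 62.7, 51.0, 48.2 and 51.3 CPM in euhydrated and 47.5, 42.0, 44.8, 40.3 and 40.2 CPM in dehydrated libraries, with the groups apart by less than 1 CPM at their nearest points. The mean was 1.24-fold lower, 53.4 ± 5.55 against 43.0 ± 3.15 CPM (SD, n = 5; adjusted p = 0.00814). Col12a1, of tendon and other stretched tissues, had -0.18 ± 0.17 (adjusted p = 0.555), and Col9a2, the exception above 0, had 0.13 ± 0.10 (0.441). The call of Col16a1 was lost when the erythrocyte marker level was a covariate (adjusted p = 0.104, log2 fold change -0.29).

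Markers of some other cell types in the punch were measured in the same libraries. Counts of called markers, in these and the other marker lists, are to be read beside 7.79% of all genes higher and 4.9% lower. Of 8 oligodendrocyte markers 7 had a log2 fold change below 0 and 2, Cnp and Opalin, fell, with summed levels of 9766 to 14260 CPM in euhydrated and 9310 to 11880 CPM in dehydrated libraries and a mean difference of -0.17 log2 CPM. Of 7 choroid plexus markers tested 6 were below 0 and 2, Slc4a5 and Clic6, fell, with sums of 22.8 to 45.3 and 20.3 to 35.7 CPM and a mean difference of -0.26, while Otx2, also listed, was at 0 in all libraries. Of 5 genes listed as oligodendrocyte precursor markers and tested 1, Cspg5, fell, with sums of 314.8 to 346.6 and 307.8 to 352.1 CPM and a mean difference of -0.03. Some genes of that list, Cspg5 among them, are not specific to precursors. Of 8 astrocyte markers 1, Aldoc, rose, with sums of 4981 to 5952 and 5040 to 5837 CPM and a mean difference of -0.03, and of 10 microglia and macrophage markers 2, Mrc1 and Cd163, rose, with sums of 249.6 to 292.3 and 249.6 to 286.6 CPM and a mean difference of 0.09. The part of these cell types in the collagen changes was not tested.

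The remaining chains that rose, Col8a1, Col7a1 and Col6a1, came from 3 other classes. Col8a1 (ENSRNOG00000039668) encodes a short-chain network collagen of vessel walls and of the corneal endothelium. It was the steadiest of the 39 chains in the euhydrated group, with a coefficient of variation of 1.98% against a median of 12.5%, at 10.1, 9.77, 9.90, 9.74 and 9.56 CPM, and stood at 14.5, 14.5, 14.3, 13.0 and 12.6 CPM in dehydrated libraries. At its 256 to 284 counts per euhydrated library, counting error alone gives a wider spread on average. The lowest of 39 values therefore does not show a tightly held level. The groups were well apart, with a 1.40-fold rise (log2 fold change 0.49 ± 0.06, SE; adjusted p = 0.000116) that held in all 21 alternatives. Its partner Col8a2 had 0.29 ± 0.14 (adjusted p = 0.229), and Col10a1, the other network chain, had 0 to 5 counts per library and was not tested.

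Col7a1, for the collagen of the anchoring fibrils under epithelia, stood at 8.10, 7.26, 8.13, 7.34 and 6.85 CPM in euhydrated and 10.9, 11.3, 8.98, 9.02 and 9.56 CPM in dehydrated libraries. The groups did not overlap, and the rise was 1.32-fold (adjusted p = 0.00687; 0.0809 with the mural marker level as a covariate, at a log2 fold change of 0.30). Col6a1, for a chain of the beaded filaments that link cells to the matrix around vessels, stood at 39.4, 42.0, 41.2, 36.1 and 36.3 CPM in euhydrated and 46.2, 48.4, 47.2, 42.1 and 47.5 CPM in dehydrated libraries. Only dehydrated 4 came near the euhydrated range, and the rise was 1.19-fold (adjusted p = 0.00589; 0.0967 with the erythrocyte marker level as a covariate). Col6a2 had a log2 fold change of 0.15 ± 0.06 (adjusted p = 0.164). Of 21 alternatives it passed only in the 1 without dehydrated 4 (adjusted p = 0.0136), and its adjusted p ran up to 0.489. The identifier that the authors' second name column pairs with Col6a3, which the symbol rule did not take in, had a log2 fold change of -0.02 ± 0.06. Col6a4, Col6a5 and Col6a6 were at 0.71 to 1.6 CPM in the euhydrated mean and none passed. Col26a1 and Col28a1 had log2 fold changes of -0.47 ± 0.19 and -0.04 ± 0.17 at mean levels under 2 CPM (adjusted p = 0.111 and 0.926).

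Erythrocyte markers, which follow the blood left in a punch, were lower in the dehydrated group. All 7 erythrocyte markers tested had a log2 fold change below 0, 1 of them past the threshold, and their summed level was 1027 to 2058 CPM in euhydrated and 590.3 to 1428 CPM in dehydrated libraries. With their mean level as a covariate, 4 collagen chains were higher and 1 lower, namely Col4a1, Col4a5, Col7a1, Col8a1 and Col25a1. The part of blood in these changes was not tested.

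The genes that build, bind and break down collagen gave mostly small changes. Of 18 genes of collagen folding and modification 4 rose and 0 fell, against 7.79% and 4.9% of all genes, with a median log2 fold change of 0.05. The largest rise was that of Plod3, for a lysyl hydroxylase that also adds sugars to collagen and is needed for type IV secretion, from 47.0 ± 2.91 to 66.2 ± 5.19 CPM (SD, n = 5; 1.41-fold, adjusted p = 2.85e-05). P4hb, for the protein disulfide isomerase that is also a prolyl hydroxylase subunit, rose 1.15-fold (adjusted p = 0.00236), and P4ha2, for a catalytic subunit of that enzyme, 1.15-fold (0.0203). Of 11 genes of propeptide removal and cross-linking 0 rose and 0 fell by edgeR (3 higher and 1 lower at an unadjusted p under 0.05; 2 higher by DESeq2, 0 by limma-voom), and Furin and Bmp1, for a propeptide-cutting convertase and the procollagen C-proteinase, had log2 fold changes of 0.12 and 0.06 (adjusted p = 0.103 and 0.489).

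Basement membranes also hold laminins and nidogens. Of 15 such partner genes tested 6 rose and 0 fell, against 7.79% of all genes higher, and the median was 0.06. Lama4, for the laminin chain typical of endothelial basement membranes, rose from 28.8 ± 1.66 to 36.3 ± 2.54 CPM (SD, n = 5; 1.26-fold, adjusted p = 0.000904). Nid2, for a nidogen, a protein that bridges laminin and type IV collagen, rose 1.23-fold (adjusted p = 0.00441) and Lamc1, for the commonest laminin gamma chain, 1.18-fold (0.000369). Nid1, the other nidogen gene, did not pass (log2 fold change 0.02, adjusted p = 0.858). Of 10 collagen-binding proteoglycans and glycoproteins 2 rose and 0 fell, with a median of 0.14. These were Fn1, for fibronectin, at 1.32-fold (adjusted p = 0.0339), and Thbs2, for a matricellular thrombospondin, at 1.31-fold (0.0391), whose calls were lost in 8 and 7 of the 10 fits without 1 library.

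Among 13 genes of collagen breakdown and its control 4 rose and 1 fell, against 7.79% and 4.9% of all genes, with a median of 0.05. Mmp9, for a gelatinase that cuts type IV collagen, rose from 0.903 ± 0.381 to 2.62 ± 0.760 CPM (SD, n = 5; 2.90-fold, adjusted p = 0.00186). Of its dehydrated libraries 1, at 1.40 CPM, lay within the euhydrated range of 0.542 to 1.52 CPM. Among the inhibitors of such proteases, Timp4 rose 1.17-fold (adjusted p = 0.0272) and the membrane-bound inhibitor Reck 1.11-fold (0.021). Timp3 rose 1.11-fold (adjusted p = 0.0105), while Timp1 and Timp2 did not pass (log2 fold changes of 0.43 and 0.01, adjusted p = 0.359 and 0.829). The gene that fell was Mmp15, 1.11-fold lower (adjusted p = 0.0229). Of 8 collagen receptors 1 rose and 1 fell, to be read beside the same shares of all genes. Itgb1, for the beta chain of the collagen-binding integrins, rose 1.18-fold (adjusted p = 0.000823), and Adgrg1, for an adhesion receptor that binds type III collagen, fell by 0.20 on the log2 scale, from 176 ± 4.01 to 153 ± 6.32 CPM (SD, n = 5; adjusted p = 0.000724).

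**Figure D5:**
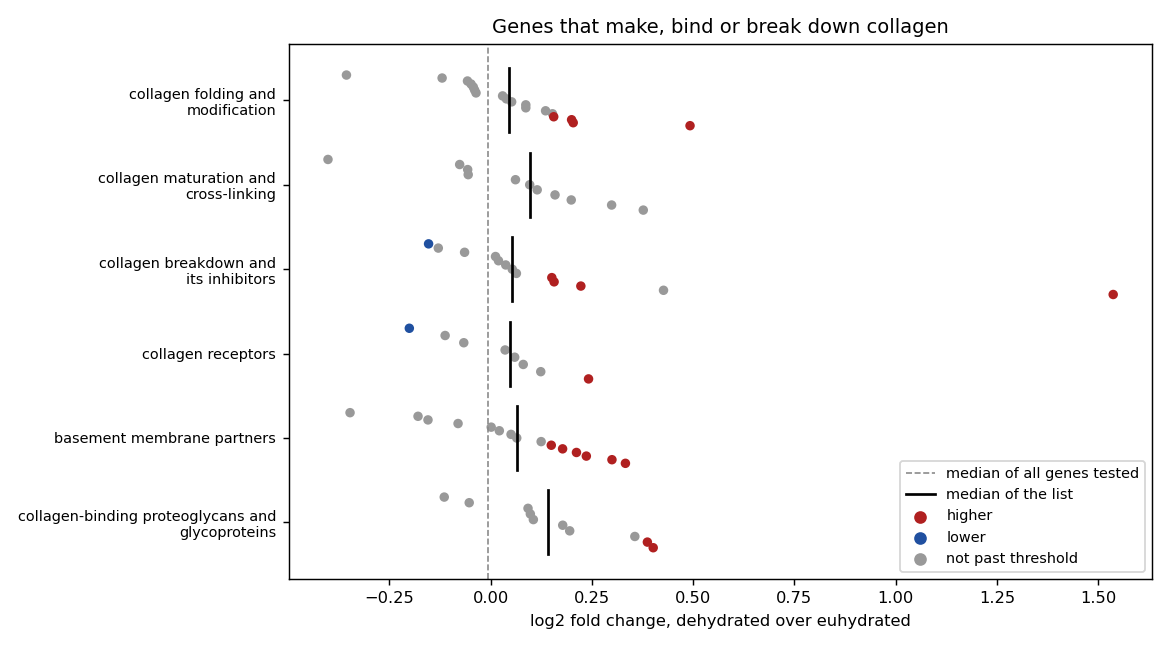
Log2 fold change (horizontal axis) of each tested gene in 6 lists of genes that make, bind or break down collagen, with the median of each list (black bar) and of all genes (dashed line at -0.0058); red marks genes called higher, blue genes called lower. Mmp9 is the point at 1.54, and 6 of 15 basement membrane partners are red.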

How the data were processed

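RNA from SON punches (1 mm corer) was sequenced after stranded mRNA library preparation, per the labels' protocols. Per the submitters' processing notes the tools were CASAVA, FastQC, STAR, featureCounts and DESeq2 1.28.1. The sources used here do not give the genome build, annotation or strand setting. The deposited raw counts per gene were the input to all tests. The authors also deposited signal values (counts divided by 1 size factor per library, for 100% of values within 1% or 0.1), and a table with log2 fold changes and p-values of their own comparison, used for gene symbols and for the sentences that name that table. Of the euhydrated count columns, 3 could be tied to their group but not to a single sample.

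Genes were filtered with filterByExpr, scaled by TMM and tested in R 4.3.3 with edgeR 4.0.16 (robust quasi-likelihood, 5 against 5, no covariate). Benjamini-Hochberg adjustment ran over all 15311 genes, with a threshold of 0.05. Log2 CPM used a prior count of 2, and SE is the log2 fold change over the root of F. No library was a repeat of another: chi-square over its degrees of freedom was 4.855 to 12.06 for pairs of the same group. Alternatives used DESeq2 1.42.0, limma-voom (limma 3.58.1), other scalings and filters, marker levels as covariates, and leaving out each library. In data simulated on these libraries (15209 genes) the fit recovered 50% of 1.25-fold, 78% of 1.5-fold and 98% of 2-fold changes, with 7.56% of calls false, so changes of the size seen here can be missed. The simulated data held a far smaller share of changed genes than was called here. Benjamini-Hochberg cut-offs depend on that share, so these rates may not carry over.

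Named were all chains past the threshold, the 2 most counted others in each class, Col1a1 for its relations, and up to 3 called genes with the largest change per pathway list (the 2 most counted where none was called). Other chains and other genes of the pathway lists are named for completeness. Members and lists were chosen with earlier results of these data known. Promoter windows and start sites are RefSeq's on GRCr8, matched by symbol for 33 of 42 chains.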

Additional observations from a re-analysis of the deposited data

Results flagged for a closer look

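In 9 of 96 sets of 5 libraries looked at (collagen chains and class sums), 1 library stood apart from the other 4 of its group by more than 0.71 of the whole range, which chance gives in about 1 in 20 sets. Among chains past the threshold these were Col4a2 at 117 CPM in dehydrated 1 (others 92.1 to 98.6), Col18a1 at 71.1 CPM in euhydrated 3 (others 60.5 to 62.8) and Col25a1 at 37.0 CPM in euhydrated 5 (others 29.6 to 31.2). The last also set the summed transmembrane level of 49.9 CPM in euhydrated 5 (others 41.5 to 43.8). Among chains not past it, Col1a1 was at 69.7 CPM in dehydrated 5 (others 87.8 to 93.6), Col13a1 at 10 CPM in euhydrated 4 (others 11.5 to 11.9), Col20a1 at 1.44 CPM in dehydrated 3 (others 1.92 to 2.11) and Col28a1 at 2.57 CPM in euhydrated 5 (others 1.56 to 1.82). The summed beaded filament level was 95.4 CPM in dehydrated 4 (others 111 to 118).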

How the results depend on the processing

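The counts of 9 higher and 2 lower collagen chains, and the 11 chains themselves, were the same with DESeq2, limma-voom, DESeq2 size factors and other count filters. At an adjusted p under 0.01, 891 genes and 5 higher chains were left. With the erythrocyte marker level as a covariate these were 784 genes, 4 higher and 1 lower chains, and with the mural level, chosen after seeing the data, 1247 genes, 4 higher and 5 lower; the cause was not tested. Without scaling factors 904 genes were higher and 1173 lower (43.5% higher), the all-gene median was -0.033 (log2), and 7 chains were higher and 2 lower. Leaving out each library gave 1494 to 1756 genes, 6 to 10 higher and 2 to 3 lower chains (6 and 3 without dehydrated 1). The Col6a1 to Col6a2 log2 ratio ranged from 0.0769 to 0.13 and was not past the threshold without euhydrated 1, 3, 4 or 5 or dehydrated 3, 4 or 5, with lowest and highest values of 0.0769 and 0.111 there. Col4a1 with Col4a2, taken as deviations from group means, gave r = 0.743. Chains not past the threshold also changed sign: Col13a1 0.0105 with the endothelial covariate and 0.0113 without dehydrated 4 (range without 1 library -0.0702 to 0.0113); Col28a1 0.133 with the erythrocyte covariate, 0.111 without euhydrated 5 and 0.0424 without dehydrated 5 (range without 1 library -0.0894 to 0.111); Col6a6 0.286 with the erythrocyte covariate, 0.113 without euhydrated 2 and 0.103 without dehydrated 4 (range -0.23 to 0.113); and Col9a2 -0.0228 with the mural covariate. Over 21 alternatives at the 0.05 threshold (20 for Col6a4 and Col6a5) the log2 fold change also crossed 0, with ranges of -0.586 to 0.111 in Col24a1, -0.0784 to 0.0873 in Col27a1, -0.0558 to 0.0226 in Col5a3, -0.196 to 0.56 in Col6a4 and -0.27 to 0.293 in Col6a5. With a replicate block (numbers 1 and 2 as blocks, the other 6 libraries as 1), 1861 genes, 7 higher and 3 lower chains passed, 9 of them shared with the fit without the block. For numbers 1 and 2, the only ones that could be matched, deviations from the group means correlated at r = -0.0682 and 0.141, which does not show that numbers pair samples; the others were not checked.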
